A study of Homo sapiens with 15 samples.

Results

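Fatty acid oxidation genes of the kind switched on by PPAR receptors were followed through RNA sequencing of 15 libraries. All are labelled MDA-MB231, a line from a human breast tumour of triple-negative type. By label KIF20A, a kinesin needed late in cell division, was depleted or overexpressed, with control libraries for each. The 9 genes were found by symbol among the 60651 genes of the depletion count table and the 23792 genes of the overexpression table. PDK4, CPT1A, ANGPTL4, PLIN2 and CREB3L3 were chosen because they lay higher in both depletion groups of these same data, so their depletion values are a description and carry no test. ACADVL, SLC25A20, CPT2 and HADHA were added as further fatty acid oxidation genes. The depletion dataset held 3 libraries each of SG1 and SG3, both labelled as KIF20A knockdown, and 3 of CTRL, labelled WT. The overexpression dataset held 3 libraries each of KIF20A_OE, labelled as KIF20A overexpression, and EV, labelled WT. All the cells were kept in DMEM with fetal bovine serum. The labels do not say what SG1 and SG3 stand for, how KIF20A was delivered, whether a group was a clone or a pool, or whether replicates came from separate cultures. The spread behind each p-value may therefore be technical.

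Long-chain fatty acids enter the mitochondrial matrix as carnitine esters: the carnitine palmitoyltransferase CPT1A makes them at the outer membrane, the carrier SLC25A20 passes them through the inner membrane, and CPT2 turns them back into acyl-CoA for the beta-oxidation enzymes ACADVL and HADHA. In liver, muscle and fat, fatty acids and fasting raise many of these genes through the PPAR nuclear receptors, which bind DNA with RXR partners at paired AGGTCA-like half-sites. PDK4, which shuts down pyruvate dehydrogenase, PLIN2, a lipid droplet coat protein, and ANGPTL4, a secreted inhibitor of lipoprotein lipase, are textbook PPAR targets, and CREB3L3 is a membrane-bound transcription factor known from liver and intestine.

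The promoters of the 5 genes chosen for their depletion levels are printed because these genes lay higher together. Each runs from 250 bases before to 50 after the RefSeq gene start on GRCh38.p14, 5′ to 3′ in the direction of transcription: chr11:68844228-68844527 for CPT1A, chr7:95596467-95596766 for PDK4 and chr9:19127443-19127742 for PLIN2, all on the minus strand, and chr19:8363905-8364204 for ANGPTL4 and chr19:4153381-4153680 for CREB3L3, both on the plus strand. Capitals mark every match, on either strand, to the half-site AGGTCA, its direct repeat with one base between (AGGTCA, then N, then AGGTCA), the E-box CACGTG, the cyclic AMP element TGACGTCA and the TATA sequence TATAAA.
CPT1A: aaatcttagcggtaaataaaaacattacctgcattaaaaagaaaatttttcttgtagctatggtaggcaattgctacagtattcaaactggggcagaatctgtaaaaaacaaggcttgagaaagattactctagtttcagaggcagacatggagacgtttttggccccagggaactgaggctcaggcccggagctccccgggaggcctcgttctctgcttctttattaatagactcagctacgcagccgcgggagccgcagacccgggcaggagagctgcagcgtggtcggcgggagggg
PDK4: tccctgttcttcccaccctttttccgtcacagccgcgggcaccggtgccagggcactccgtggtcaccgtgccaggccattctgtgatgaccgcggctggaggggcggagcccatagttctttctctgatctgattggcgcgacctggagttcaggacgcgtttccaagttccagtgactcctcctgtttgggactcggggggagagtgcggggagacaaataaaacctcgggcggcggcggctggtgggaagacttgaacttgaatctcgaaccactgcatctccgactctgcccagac
PLIN2: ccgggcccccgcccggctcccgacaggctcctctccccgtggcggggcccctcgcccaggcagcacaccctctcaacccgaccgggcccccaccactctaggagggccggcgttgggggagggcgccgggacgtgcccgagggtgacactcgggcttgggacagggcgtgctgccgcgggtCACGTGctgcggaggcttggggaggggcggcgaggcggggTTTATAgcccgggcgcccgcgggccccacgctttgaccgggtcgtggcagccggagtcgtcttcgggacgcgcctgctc
ANGPTL4: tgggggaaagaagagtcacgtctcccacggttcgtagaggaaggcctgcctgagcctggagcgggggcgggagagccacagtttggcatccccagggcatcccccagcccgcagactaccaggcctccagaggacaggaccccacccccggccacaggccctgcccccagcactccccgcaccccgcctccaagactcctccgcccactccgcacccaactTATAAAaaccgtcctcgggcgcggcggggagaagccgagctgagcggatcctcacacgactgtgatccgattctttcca
CREB3L3: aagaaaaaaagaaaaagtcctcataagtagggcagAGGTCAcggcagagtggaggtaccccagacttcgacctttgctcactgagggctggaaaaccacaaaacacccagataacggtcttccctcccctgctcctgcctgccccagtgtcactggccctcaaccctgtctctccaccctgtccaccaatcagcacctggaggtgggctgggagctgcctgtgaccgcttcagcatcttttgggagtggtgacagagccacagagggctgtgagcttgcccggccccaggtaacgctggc
A half-site match was found in CREB3L3 alone of these 5 windows, and no window held the direct repeat, which contains 2 half-sites. Only exact matches within these 300 bases were sought. Looser or more distant sites were not looked for, so nothing is read from an absence. ANGPTL4 held TATAAA 29 bases before the start, and PLIN2 held it on the opposite strand, as TTTATA, beginning at the same distance. The E-box lay in PLIN2, 69 bases before the start, and reads the same on both strands. Among all 35116 promoters of the table, 13.8% held the half-site, 0.0228% the direct repeat, 7.26% the E-box, 1.85% the cyclic AMP element and 11.5% the TATA sequence. All 9 genes were matched, with 10 promoters because ACADVL has 2 starts, and of the other 4 genes ACADVL alone held one of these motifs, a TATA match.

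Targeting was checked first. KIF20A had 123, 147 and 91.5 CPM (counts scaled by an adjusted library total) in SG1 libraries and 86.3, 60.8 and 79.1 CPM in SG3 libraries, against 154, 171 and 160 CPM in CTRL libraries. Every depletion library was below every CTRL library, by a log2 fold change of -0.42 ± 0.18 (SE) in SG1 and -1.10 ± 0.18 in SG3, and neither passed edgeR's quasi-likelihood test after adjustment over all genes (adjusted p = 0.913 and 0.33). The SG3 value was called by DESeq2 and by edgeR without the low-count filter. Totals were 40.9 to 51.0 M counts (M, mega) in the depletion libraries and 16.0 to 22.2 M fragments in the overexpression libraries. Along the first principal component of the depletion libraries, which held 23.4% of the variance, SG3 replicate 1 lay at 32.1 and its group at -33.4 and -30.0, and CTRL replicate 3 lay at 24.7 and its group at -27.4 and -21.3. Both libraries stand apart from their groups, on the side of the SG1 libraries, which lay at 16.6, 22.0 and 16.6. For the 9 genes, KIF20A and the pathway genes that then pass the test, values without both are given as well. Leaving both out puts SG1 on one side of this component and the remaining CTRL and SG3 libraries on the other. In every such fit below, a difference between SG1 and CTRL or SG3 cannot be told apart from this split. KIF20A was at -0.45 in SG1 and -1.20 in SG3 against CTRL without both. Of the 8 markers listed for the line, 7 averaged 1 CPM or more in SG1, SG3 and CTRL, and SPARC, the remaining one, was at 0.246 to 1.01 CPM.

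The libraries labelled KIF20A_OE went against the cell line on their label. CDKN2A, CDKN2B and MTAP, a block of chromosome 9 known to be deleted in this line and singled out here after their values were seen, had no read in any EV library or any of the 9 depletion libraries. In the libraries labelled KIF20A_OE, CDKN2A was at 276 to 353 FPM (fragments scaled by the library total, without the adjustment used for CPM), CDKN2B at 12.2 to 14.9 FPM and MTAP at 22.6 to 24.6 FPM. The surface markers CD44 and AXL were at 0.125 to 1.23 and 0.750 to 0.811 FPM in the libraries labelled KIF20A_OE, against 523 to 788 and 811 to 1107 FPM in EV libraries. The summed line markers came to 731 to 1214 FPM in the libraries labelled KIF20A_OE and 6982 to 8875 FPM in EV libraries. CD44 and AXL were the extremes: the other 6 of the 8 markers still averaged 1 FPM or more in the libraries labelled KIF20A_OE. Of the 8, limma called 7 lower and 1 higher. SPARC went the other way, at 27.6 to 74.6 FPM against 6.28 to 36.9 FPM in EV libraries. KIF20A itself was at 1348, 269 and 896 FPM in the libraries labelled KIF20A_OE, against 101, 143 and 124 FPM in EV libraries. All 3 libraries of the group share this, so in every overexpression result below KIF20A and a difference between cells cannot be told apart.

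In the depletion dataset, CPT1A, PDK4, PLIN2, ANGPTL4 and CREB3L3 each lay higher in all 6 depletion libraries than in any CTRL library. None of the other 4 genes passed the test in either group, where edgeR called 0% of all genes, so the test does not set the 4 apart from the 5. Of the 16786 genes tested, 0.536% had every depletion library above every CTRL library, 4.96% had every SG1 library and 2.28% every SG3 library above CTRL, and nothing is read from the count of 5 because the genes were chosen on it. PLIN2 was the closest to overlap among them, with 66.9 CPM in its lowest depletion library and 62.3 CPM in its highest CTRL library. SLC25A20 fell just outside, since its lowest depletion library, at 7.90 CPM, was below its highest CTRL library, at 8.46 CPM.

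CPT1A, the rate-setting gate of the carnitine shuttle, lies at chromosome 11, 68754620 to 68844410, on GRCh38. It had 87.0, 87.8 and 109 CPM in SG1 libraries and 108, 106 and 101 CPM in SG3 libraries, against 56.9, 66.6 and 39.3 CPM in CTRL libraries. The SG3 libraries were the most even of the 3 groups, and the library lowest in CPT1A was CTRL replicate 3, one of the pair that stands apart. On the log2 scale CPT1A was higher by 0.80 ± 0.18 (SE) in SG1 and by 0.95 ± 0.18 in SG3 than in CTRL, and by 0.60 and 0.76 with both of those libraries left out. Its paralog CPT1B, the muscle form, stayed under 1 CPM in every depletion library, and CPT1C, the brain form, was at 5.39 to 7.65 CPM in SG1, 4.46 to 6.80 CPM in SG3 and 5.44 to 7.96 CPM in CTRL.

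SLC25A20, the carnitine-acylcarnitine carrier at chromosome 3, 48856931 to 48898993, was read at 7.90, 8.09 and 9.47 CPM in SG1 libraries and 9.37, 11.1 and 10.0 CPM in SG3 libraries, against 7.43, 8.46 and 6.22 CPM in CTRL libraries. All SG3 libraries were above CTRL, which 2.28% of the genes tested showed, and SG1 libraries overlapped it. Its log2 fold change was 0.20 ± 0.19 in SG1 and 0.46 ± 0.19 in SG3 (edgeR adjusted p = 0.921 and 1.00). Without both libraries that stand apart these were 0.08 and 0.42, and without CTRL replicate 3 alone the SG1 value was 0.07.

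CPT2, the inner-membrane transferase at chromosome 1, 53196429 to 53214197, gave 11.3, 10.3 and 9.20 CPM in SG1 libraries and 11.8, 8.86 and 8.97 CPM in SG3 libraries, against 8.38, 9.41 and 8.61 CPM in CTRL libraries. Both depletion groups overlapped CTRL, at log2 fold changes of 0.22 ± 0.18 in SG1 and 0.16 ± 0.18 in SG3 (edgeR adjusted p = 0.921 and 1.00). Without both libraries that stand apart these were 0.19 and 0.02, and without SG3 replicate 1 alone the SG3 value was 0.04.

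The beta-oxidation enzymes had the highest levels per kb of the 9 genes and did not pass the test in either depletion group. ACADVL, the very long-chain acyl-CoA dehydrogenase at chromosome 17, 7217125 to 7225273, stood at 222, 208 and 251 CPM in SG1 libraries and 191, 316 and 316 CPM in SG3 libraries, against 281, 231 and 147 CPM in CTRL libraries. The groups overlapped, and the low values of SG3 and CTRL were the libraries that stand apart. Its log2 fold change was 0.05 ± 0.22 in SG1 and 0.32 ± 0.22 in SG3 (edgeR adjusted p = 0.984 and 1.00), and without CTRL replicate 3 the SG1 value turned to -0.19. The SG3 value was 0.10 without CTRL replicate 3, 0.55 without SG3 replicate 1 and 0.32 without both, where the SG1 value was -0.18. HADHA, the alpha subunit of the trifunctional protein at chromosome 2, 26190635 to 26244726, had 163, 160 and 143 CPM in SG1 libraries and 145, 150 and 156 CPM in SG3 libraries, against 144, 162 and 159 CPM in CTRL libraries. These ranges nearly coincided, with a log2 fold change of -0.05 ± 0.12 in SG3 (edgeR adjusted p = 1.00) and a smaller one of -0.000577 ± 0.12 in SG1 (edgeR adjusted p = 1.00). Without both libraries that stand apart these were 0.01 in SG3 and 0.00251 in SG1.

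PDK4, at chromosome 7, 95583499 to 95596491, had 6.15, 8.60 and 7.45 CPM in SG1 libraries and 8.27, 6.47 and 5.83 CPM in SG3 libraries, against 1.10, 3.12 and 2.56 CPM in CTRL libraries. Every depletion library was well clear of CTRL, and the lowest library was CTRL replicate 1. The log2 fold change was 1.71 ± 0.31 in SG1 and 1.599 ± 0.311 in SG3, or 1.78 and 1.55 without the 2 libraries that stand apart. Other pyruvate dehydrogenase kinases gave smaller values: PDK1 had log2 fold changes of 0.39 in SG1 and 0.12 in SG3, PDK2 of 0.12 and 0.11, and PDK3 of 0.53 and 0.19, none past the edgeR threshold of an adjusted p of 0.05.

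PLIN2, at chromosome 9, 19108375 to 19149290, had 76.7, 76.3 and 103 CPM in SG1 libraries and 82.5, 69.5 and 66.9 CPM in SG3 libraries, against 45.0, 53.6 and 62.3 CPM in CTRL libraries. SG1 replicate 3 was the highest library, and the gap between SG3 and CTRL was narrow. The log2 fold change was 0.67 ± 0.17 in SG1 and 0.44 ± 0.17 in SG3, or 0.78 and 0.48 without the 2 libraries that stand apart. Among the other perilipins, PLIN3, which coats small droplets throughout the body, was at -0.23 in SG1 and 0.01 in SG3 on the log2 scale, and PLIN4 lay at or below 1.13 CPM in every depletion library.

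ANGPTL4, at chromosome 19, 8363289 to 8374373, had 3.03, 2.79 and 8.41 CPM in SG1 libraries and 8.59, 4.24 and 4.15 CPM in SG3 libraries, against 1.04, 1.42 and 1.15 CPM in CTRL libraries. One library in each depletion group stood well above the others of its group, SG1 replicate 3 and SG3 replicate 1. The log2 fold change was 1.97 ± 0.42 in SG1 and 2.23 ± 0.42 in SG3, and it dropped to 1.27 in SG1 without SG1 replicate 3 and to 1.82 in SG3 without SG3 replicate 1. Those libraries also had the highest mitochondrial mRNA share of their groups, 3.41% and 2.03%, within ranges of 1.47 to 3.41% in SG1 and 0.975 to 2.03% in SG3. The CTRL range was 0.962 to 2.55%, and the library at 2.55%, CTRL replicate 1, had the lowest ANGPTL4 level, 1.04 CPM. The part of this share in the ANGPTL4 values was not tested. LPL, the lipase that ANGPTL4 inhibits, was at 2.23, 3.48 and 3.55 CPM in SG1 libraries and 5.64, 5.32 and 3.76 CPM in SG3 libraries, against 5.25, 7.21 and 7.09 CPM in CTRL libraries. All SG1 libraries were below CTRL, as for 7.21% of genes tested, and the log2 fold change of -1.08 ± 0.25 did not pass (edgeR adjusted p = 0.913).

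CREB3L3, at chromosome 19, 4153601 to 4173054, was read at the limit of the data, with 16, 30 and 16 counts in SG1 libraries and 26, 12 and 18 counts in SG3 libraries, against 2, 4 and 0 counts in CTRL libraries. In CPM these were 0.337, 0.615 and 0.383 in SG1, 0.495, 0.256 and 0.434 in SG3, and 0.0441, 0.0810 and 0 in CTRL, where 3 counts, the limit that a count of 0 allows, equal 0.0598 to 0.0673 CPM. The 6 depletion libraries were above CTRL at counts that leave the size of the ratio loose, with log2 fold changes of 3.33 ± 0.77 in SG1 and 3.16 ± 0.77 in SG3, or 2.75 and 2.41 without the 2 libraries that stand apart. Its relatives lay near 0 in log2 fold change, CREB3L1 at -0.08 in both depletion groups and CREB3L2 at 0.19 in SG1 and 0.02 in SG3.

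**Figure D1:**
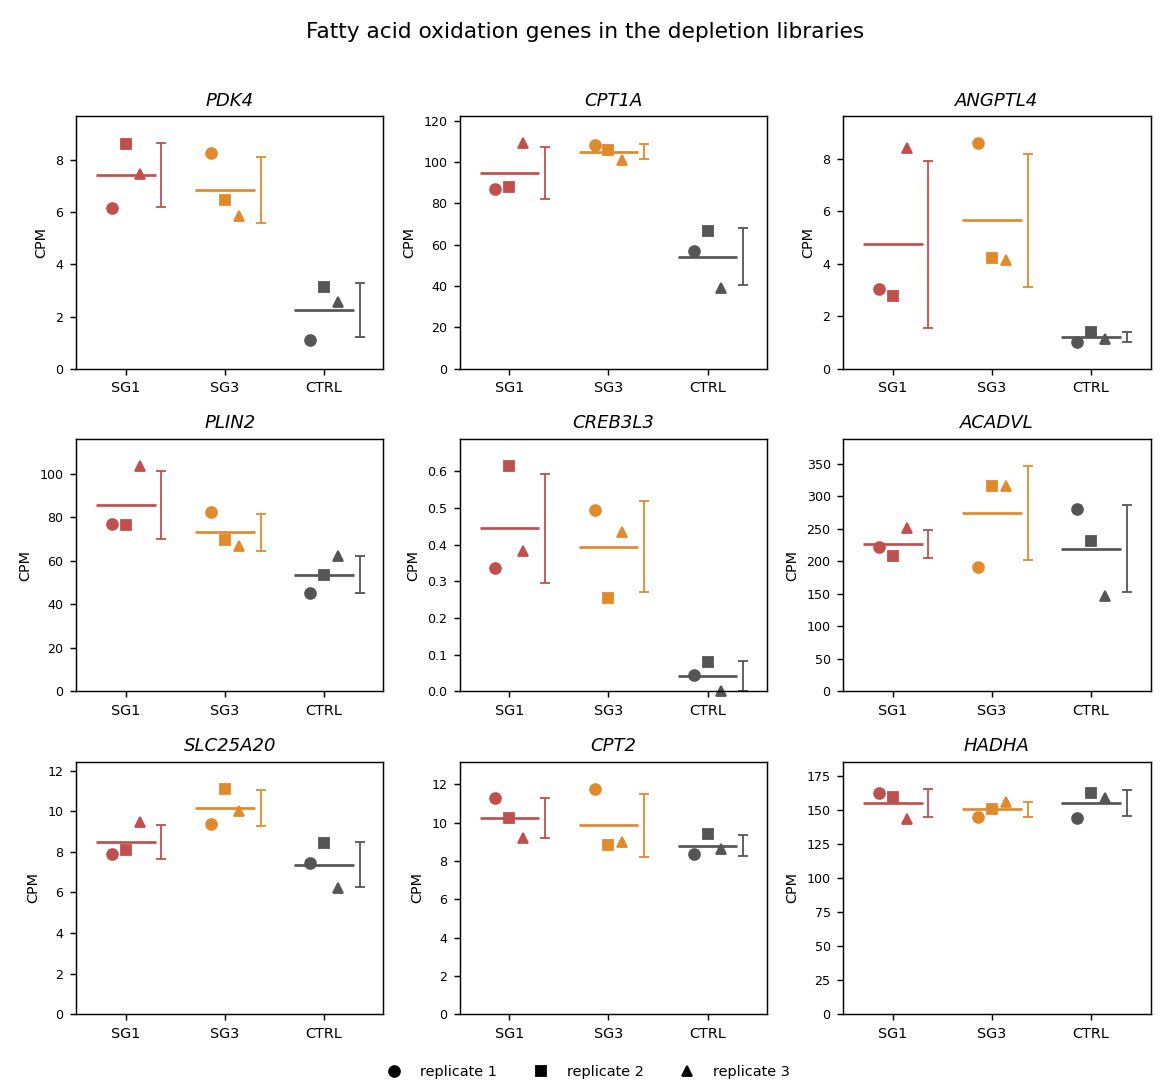
Levels in CPM (vertical axes, from 0) of the 9 genes in SG1, SG3 and CTRL; symbols are single libraries, horizontal lines group means and bars the SD of 3 libraries. In the first 5 panels every depletion library lies above every CTRL library, while ACADVL, CPT2 and HADHA overlap in both depletion groups and SLC25A20 overlaps in SG1.

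Per length of merged exons in GENCODE 29, the order of the genes was similar in the 3 groups. In CTRL, ACADVL averaged 45.1 ± 13.8 CPM per kb (SD, n = 3) and HADHA 35.4 ± 2.18 CPM per kb, which overlap, followed by PLIN2 at 10.6 ± 1.70 and CPT1A at 8.27 ± 2.11 CPM per kb, which also overlap. SLC25A20 followed at 3.72 ± 0.565 CPM per kb, then CPT2 at 0.842 ± 0.0518 CPM per kb, PDK4 at 0.4998 ± 0.230 and ANGPTL4 at 0.485 ± 0.0785 CPM per kb, and CREB3L3 last at 0.0156 ± 0.0151 CPM per kb. PDK4 and ANGPTL4 were below CPT2 in CTRL but above it in both depletion groups, with PDK4 at 1.64 ± 0.271 CPM per kb in SG1 and 1.52 ± 0.279 in SG3, ANGPTL4 at 1.91 ± 1.28 and 2.28 ± 1.02, and CPT2 at 0.980 ± 0.0991 and 0.944 ± 0.158.

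SG1 and SG3 libraries overlapped each other in all of the 9 genes. Most genes did: of the genes tested, 6.26% had every SG1 library above every SG3 library and 4.55% had every one below. The overlap of the 9 is therefore not a result about them. KIF20A had every SG1 library above every SG3 library. The log2 fold change of KIF20A between them was 0.68 ± 0.18 (edgeR adjusted p = 0.861). It passed without the low-count filter and without the 2 libraries that stand apart. The 5 chosen genes are again described without a test, since the choice used these same SG1 and SG3 values. Their log2 fold changes of SG1 against SG3 were 0.11 ± 0.30 for PDK4, -0.15 ± 0.17 for CPT1A, -0.26 ± 0.39 for ANGPTL4, 0.23 ± 0.17 for PLIN2 and 0.17 ± 0.61 for CREB3L3. For the others they were -0.27 ± 0.22 for ACADVL, -0.26 ± 0.19 for SLC25A20, 0.05 ± 0.18 for CPT2 and 0.05 ± 0.12 for HADHA. Adjusted p-values from edgeR ran from 0.861 to 0.963 over these 4 genes, with 0% of all genes called. The standard errors of ANGPTL4 and CREB3L3 leave room for sizeable differences. With SG3 replicate 1 and CTRL replicate 3 left out together, 8.93% of genes were called between SG1 and SG3, and of the 4 further genes ACADVL alone passed, at -0.51 ± 0.11 (edgeR adjusted p = 0.0255).

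**Figure D2:**
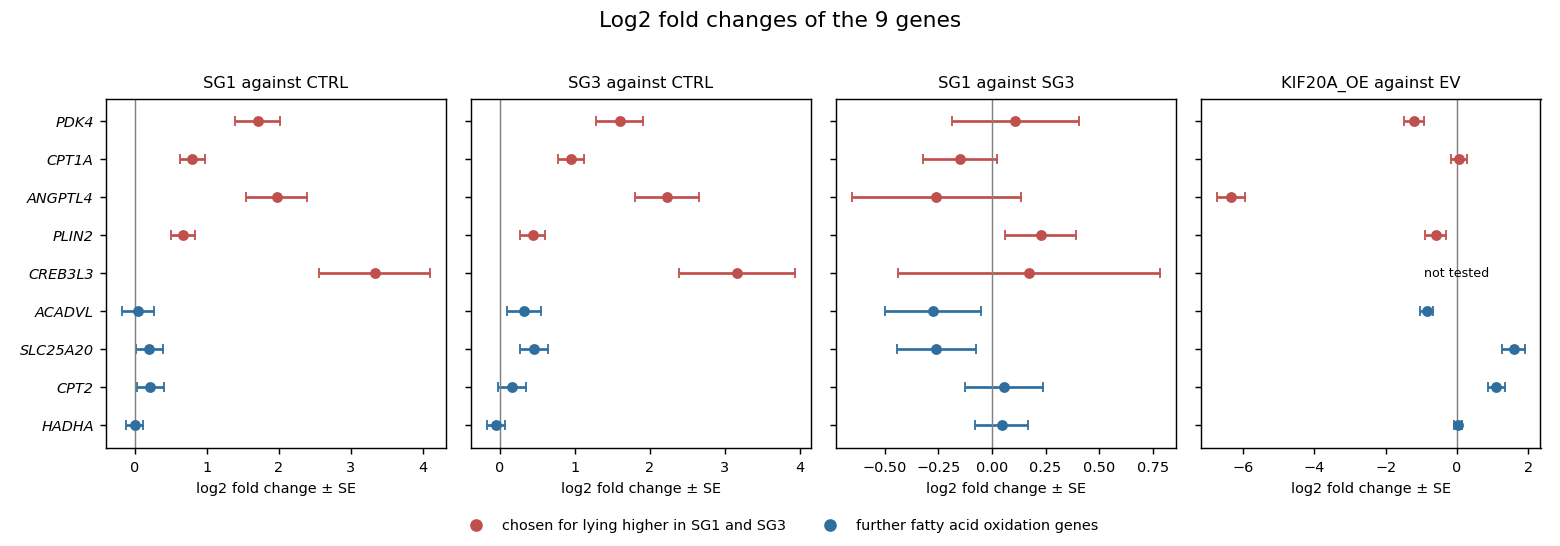
Log2 fold changes of the 9 genes with their standard errors (horizontal axes, each panel on its own scale) in 4 comparisons; red points are the 5 genes chosen for lying higher in SG1 and SG3, blue points the further 4. Between SG1 and SG3 the values lie between -0.27 and 0.23, and in the libraries labelled KIF20A_OE ANGPTL4 lies at -6.34; CREB3L3 was not tested there.

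None of the other pathway genes passed the test in a depletion group. Across the lists described here 142 distinct genes were covered, including the 9, and edgeR called 0% of all 16786 genes in SG1 and 0% in SG3 against CTRL, with 770 and 200 genes at an unadjusted p under 0.05 and 3 and 4 genes called by DESeq2. In the carnitine shuttle the median log2 fold change of the 4 genes outside the 9 was -0.06 in SG1 and -0.13 in SG3, and for the 17 mitochondrial beta-oxidation genes outside them it was -0.02 and -0.04. Medians were 0.04 and 0.06 for 15 peroxisomal beta-oxidation genes, -0.05 and 0.01 for 10 fatty acid uptake and activation genes, and -0.07 and 0.04 for 12 lipid droplet genes. All genes tested had a median of -0.00191 in SG1 and -0.0122 in SG3, so these lists lay close to the whole table. The list of lipoprotein lipase control lay lower, and so did the desaturase and lipogenic list given below, though no median was tested. In lipoprotein lipase control the 5 genes outside the 9 had medians of -0.50 in SG1 and -0.41 in SG3. Of these 5 genes 4 were below 0 in SG1 and all 5 in SG3, the highest there at -0.000708, and none passed. Of all 16786 genes, 8440 were below 0 in SG1 and 8949 in SG3. The list held LPL and, in SG3, the endothelial lipase LIPG at -0.85 ± 0.33 (edgeR adjusted p = 1.00). Medians were 0.09 and -0.05 for 10 genes of the pyruvate dehydrogenase switch, -0.02 and 0.01 for 6 of the CREB3 family, and -0.35 and -0.30 for 6 desaturase and lipogenic genes.

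Individual pathway genes showed small, mixed values. HSD17B10, a mitochondrial dehydrogenase, was at 34.7, 38.4 and 33.3 CPM in SG1 libraries, against 49.9, 49.2 and 46.9 CPM in CTRL libraries, a log2 fold change of -0.46 ± 0.16. ECI1, which moves double bonds during beta-oxidation, was at 29.2, 29.8 and 27.3 CPM in SG1 libraries, against 35.1, 46.8 and 39.6 CPM in CTRL libraries, a log2 fold change of -0.49 ± 0.21. ACAA2, a mitochondrial thiolase, lay the other way in SG1, at 36.8, 35.9 and 35.1 CPM, against 24.9, 27.7 and 33.6 CPM in CTRL. Each had an edgeR adjusted p of 0.913. In SG3 these genes lay nearer to CTRL, at -0.17 for HSD17B10, 0.05 for ECI1 and 0.16 for ACAA2 on the log2 scale. Leaving out CTRL replicate 3 and SG3 replicate 1 together brought 4.47% of all genes past the threshold in SG1 against CTRL and 0% in SG3 against CTRL. Of the 17 beta-oxidation genes, HSD17B10 and ACAD9 were then lower in SG1, at -0.50 and -0.52 (edgeR adjusted p = 0.0303 and 0.0319), and ACAA2 was higher, at 0.43 (edgeR adjusted p = 0.0495).

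No receptor or partner named for this programme passed the test with all libraries in the fit. PPARA, the fasting receptor of liver, was at 51.4, 58.5 and 54.7 CPM in SG1 libraries and 64.9, 51.1 and 55.9 CPM in SG3 libraries, against 49.4, 57.0 and 47.8 CPM in CTRL libraries. PPARD, the widely expressed form, had log2 fold changes of -0.15 in SG1 and -0.03 in SG3, PPARG, the fat cell form, of 0.21 and -0.02, and the shared partner RXRA of -0.28 and -0.05, and none of these passed. The partner RXRB was at -0.30 in SG1 and 0.11 in SG3. Without both libraries that stand apart, RXRB passed as lower in SG1 than in CTRL, at -0.55 ± 0.10 (edgeR adjusted p = 0.0222), and RXRA and RXRB as lower in SG1 than in SG3, at -0.42 and -0.60 (edgeR adjusted p = 0.0335 and 0.00942). Over 14 receptor, partner and cofactor genes the median was 0.09 in SG1 and 0.03 in SG3. Over 17 PPAR targets outside the 9 genes the medians were 0.13 and 0.11, and none passed. CAT, the peroxisomal catalase, had one of the larger values among them, 0.31 ± 0.14 in SG1 and 0.30 ± 0.14 in SG3 (edgeR adjusted p = 0.913 and 1.00). FGF21 and CYP4A11, targets known from liver, had no count in any depletion library.

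**Figure D3:**
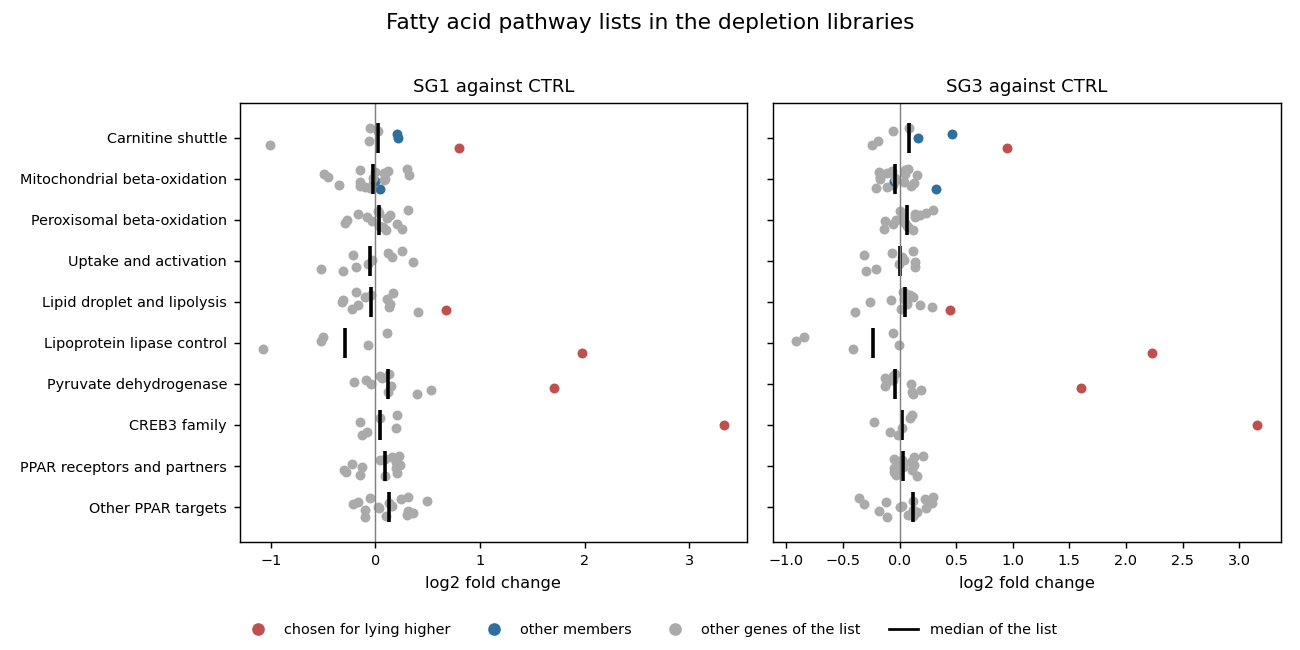
Log2 fold changes (horizontal axes) of each tested gene of 10 pathway lists in SG1 and SG3 against CTRL, with the median of each list, the 9 genes included, as a black line. The 5 chosen genes (red) lie at the right edge of their lists, while grey genes lie on both sides of 0, with LPL at -1.08 in SG1.

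Most listed markers of the cells that use this programme most averaged under 1 CPM, and none of those tested passed in a depletion group. The fat cell markers ADIPOQ, LEP and FABP4 were at 0 in SG1 and SG3, and in CTRL LEP and FABP4 had counts but averaged under 1 CPM. The 7 listed fat cell markers in the table summed to 6.79 to 8.51 CPM in SG1 and 8.27 to 10.1 CPM in SG3, against 9.09 to 13.4 CPM in CTRL. The liver markers ALB, APOA2 and APOB were at 0 in all 3 groups. SERPINA1 alone of 8 reached 1 CPM, and the 8 summed to 110 to 194 CPM in SG1, 106 to 121 CPM in SG3 and 108 to 179 CPM in CTRL. SCD, the lipogenic desaturase, was at 66.0, 132 and 61.2 CPM in SG1 libraries and 87.7, 67.8 and 56.4 CPM in SG3 libraries, against 176, 128 and 269 CPM in CTRL libraries, a log2 fold change of -1.14 ± 0.30 in SG1 and -1.43 ± 0.30 in SG3 (edgeR adjusted p = 0.913 and 0.875). All SG3 libraries were below CTRL in SCD, which 2.38% of the genes tested showed, and one SG1 library overlapped CTRL.

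The genes whose depletion profile was most like that of the 5 chosen genes were ranked by Pearson's r with the mean standardised log2 CPM of the 5, over 9 libraries and 12861 genes. SPOCK1, a matrix proteoglycan, came first with r = 0.937, at 1.25 ± 0.131 CPM in SG1 and 1.24 ± 0.240 CPM in SG3, against 0.652 ± 0.145 CPM in CTRL (SD, n = 3 each). TGFA, a ligand of the EGF receptor, came next with r = 0.917, at 145 ± 9.72 CPM in SG1 and 137 ± 5.56 CPM in SG3, against 101 ± 3.64 CPM in CTRL. KANSL1, ZNF317, CBL, POM121C, TAF4 and MCC followed with r of 0.901 to 0.872. At the opposite end were THG1L with r = -0.948, SREBF2, a master regulator of sterol synthesis, with r = -0.916, the desaturase FADS2 with r = -0.891 and CIB1 with r = -0.881. SREBF2 was at 89.2 ± 6.67 CPM in SG1 and 86.7 ± 4.55 CPM in SG3, against 106 ± 4.30 CPM in CTRL. The 9 points share 3 groups and one sequencing table, so these values describe the likeness of profiles and carry no p.

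In the overexpression table ANGPTL4 and PDK4 were lower in the libraries labelled KIF20A_OE, and CPT1A lay near 0 before TMM scaling. After it ANGPTL4, PDK4, PLIN2 and CPT1A were all below 0, at -6.59, -1.55, -0.96 and -0.31 on the log2 scale, and CPT1A did not pass. Of the 8 genes that could be tested with limma on log2(FPM + 1), 2 were higher and 3 lower in the libraries labelled KIF20A_OE than in EV libraries, where 46.2% of all 15265 genes tested were called higher and 23.4% lower. The share of the 8 genes called was near the 69.6% called among all genes and is not a result about them. TMM scaling, added after the data were seen, shifted the median gene by -0.35 on the log2 scale and moved the shares to 33.7% higher and 33% lower, 66.7% in all, and of the 8 genes 2 were then higher and 5 lower.

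ANGPTL4 had the largest difference of the 9, at 1.19, 0.451 and 0.375 FPM in the libraries labelled KIF20A_OE, against 254, 110 and 80.4 FPM in EV libraries. The groups lay far apart. Its log2 fold change was -6.34 ± 0.40 (limma adjusted p = 3.06e-06), the 64th lowest of the 15265 genes, and it rested on 36 fragments in the libraries labelled KIF20A_OE and 8993 in EV libraries. PDK4 was at 5.45, 6.67 and 6.80 FPM in the libraries labelled KIF20A_OE, against 25.4, 11.4 and 13.7 FPM in EV libraries. It fell by 1.21 ± 0.28 on the log2 scale (limma adjusted p = 0.00489), with no overlap, as for 25.2% of genes in that direction. PLIN2 was at 92.0, 91.6 and 68.5 FPM in the libraries labelled KIF20A_OE, against 199, 122 and 83.4 FPM in EV libraries. These groups overlapped, at a log2 fold change of -0.60 ± 0.29 that did not pass (limma adjusted p = 0.0970) and that did pass after TMM scaling, at -0.96 (limma adjusted p = 0.0227). CREB3L3 had no fragment in the libraries labelled KIF20A_OE, and 0.857, 0 and 0.118 FPM in EV libraries, too few to test.

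CPT1A was the one of the 5 chosen genes to lie near 0, at 85.2, 57.0 and 83.4 FPM in the libraries labelled KIF20A_OE, against 93.8, 68.5 and 56.6 FPM in EV libraries. Its log2 fold change was 0.05 ± 0.22 (limma adjusted p = 0.845) and turned to -0.31 after TMM scaling (limma adjusted p = 0.270). The 2 later shuttle steps were higher. SLC25A20 was at 20.8, 34.1 and 20.7 FPM in the libraries labelled KIF20A_OE, against 11.0, 4.40 and 8.47 FPM in EV libraries, and rose by 1.58 ± 0.32 on the log2 scale (limma adjusted p = 0.00235). CPT2 was at 3.82, 4.46 and 2.78 FPM in the libraries labelled KIF20A_OE, against 1.52, 1.35 and 0.706 FPM in EV libraries, and rose by 1.10 ± 0.23 (limma adjusted p = 0.00287). Neither overlapped between groups, as for 48.9% of genes in that direction, and both passed after TMM scaling as well. Both rose by at least 1 on the log2 scale before that scaling, which 28% of genes did, and CPT2 was at 0.85 after it, while ANGPTL4 and PDK4 were among the 14.7% that fell by at least 1. The carnitine importer SLC22A5 also rose, by 2.19 ± 0.26, and CPT1C fell by 2.82 ± 0.21. Per kb, ANGPTL4 was second of the 9 genes in EV libraries, at 59.8 ± 37.5 FPM per kb, and eighth in the libraries labelled KIF20A_OE, at 0.271 ± 0.181 FPM per kb.

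ACADVL was at 258, 167 and 171 FPM in the libraries labelled KIF20A_OE, against 391, 333 and 337 FPM in EV libraries. It fell by 0.86 ± 0.18 on the log2 scale (limma adjusted p = 0.00270), with no overlap, as for 25.2% of genes in that direction. HADHA was at 224, 230 and 237 FPM in the libraries labelled KIF20A_OE, against 247, 231 and 209 FPM in EV libraries, which overlap. Its log2 fold change of 0.01 ± 0.11 (limma adjusted p = 0.924) became -0.36 after TMM scaling, where it was called lower (limma adjusted p = 0.0282).

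**Figure D4:**
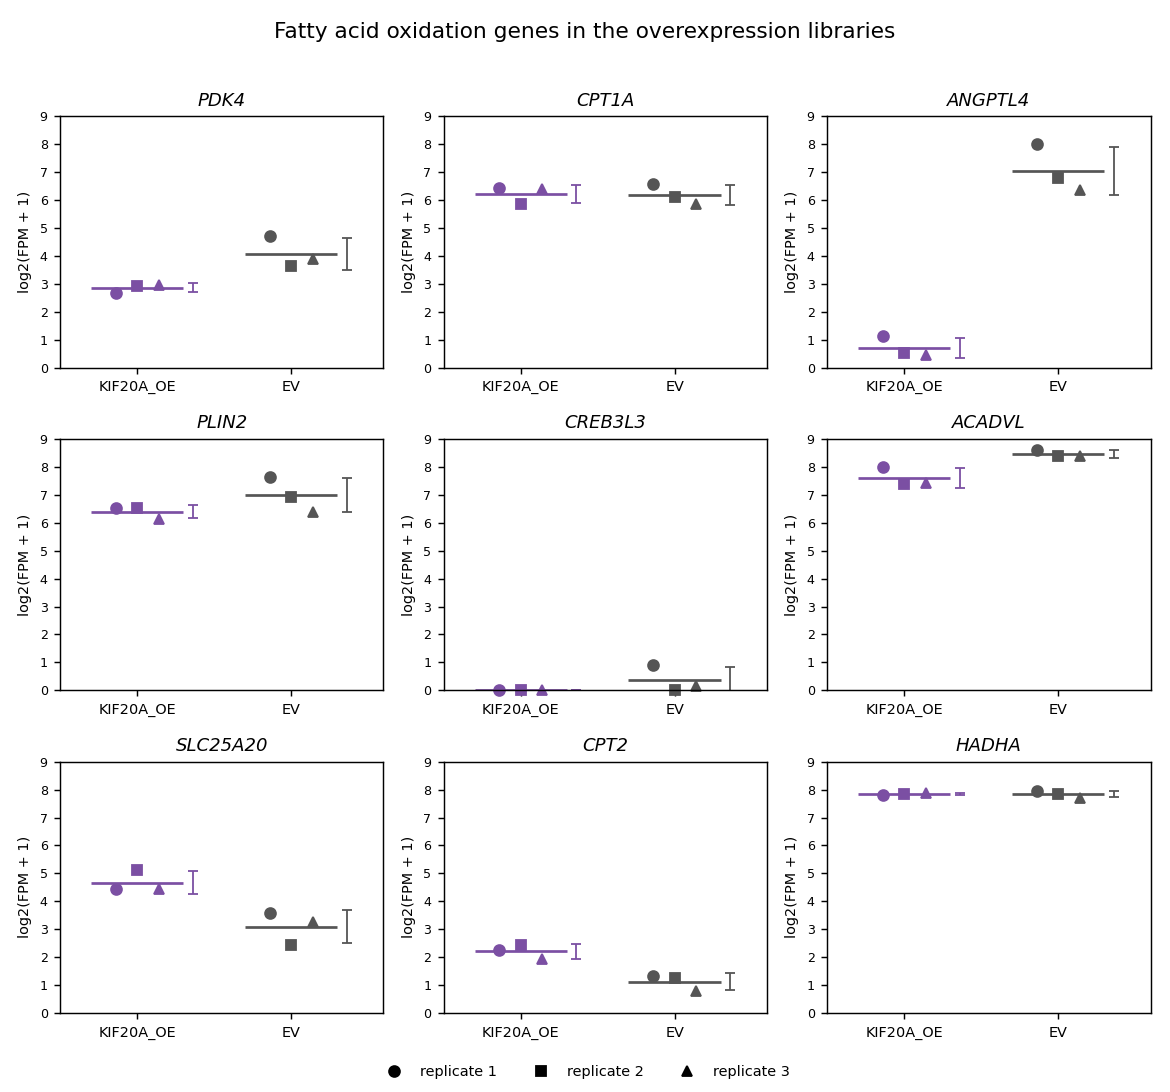
Levels of the 9 genes as log2(FPM + 1) (vertical axes, one scale) in the libraries labelled KIF20A_OE and in EV libraries; symbols are single libraries, horizontal lines group means and bars the SD of 3 libraries. ANGPTL4 shows the widest gap, SLC25A20 and CPT2 lie higher in the libraries labelled KIF20A_OE, and HADHA and CPT1A overlap.

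The counts of the lists are to be read against the 46.2% of all genes called higher and 23.4% called lower, or 33.7% and 33% after TMM scaling, which several of them come near. In the carnitine shuttle 3 of 6 tested genes rose and 2 fell, with or without TMM scaling. Around these genes, 12 of 19 mitochondrial beta-oxidation genes rose and 3 fell in the libraries labelled KIF20A_OE, and after TMM scaling 9 rose and 6 fell. HSD17B10 rose by 1.81 ± 0.18, ETFDH, which passes electrons from beta-oxidation to the respiratory chain, by 1.55 ± 0.23, and ECI1 by 1.39 ± 0.15, while DECR1, which handles unsaturated chains, fell by 1.52 on the log2 scale. In the lipid droplet list 3 of 13 tested genes rose and 6 fell, or 2 and 8 after TMM scaling, with the lipase inhibitor G0S2 at -5.58 ± 0.27, the monoacylglycerol lipase MGLL at -4.73 ± 0.19 and PLIN3 at -1.81 ± 0.11. The acyl-CoA synthetase ACSL5 fell by 6.62 ± 0.22, to 0.438, 0.135 and 0.161 FPM in the libraries labelled KIF20A_OE, against 125, 149 and 93.8 FPM in EV libraries. LPL was at 4.57, 3.07 and 3.64 FPM in the libraries labelled KIF20A_OE and listed at 0 in all EV libraries. Among the kinases of pyruvate dehydrogenase, PDK1, PDK2 and PDK3 rose by 0.99 ± 0.17, 0.79 ± 0.18 and 2.18 ± 0.25, opposite to PDK4, and PDK2 no longer passed after TMM scaling. PPARA rose by 1.01 ± 0.23, PPARD fell by 1.59 ± 0.21, and the coactivator PPARGC1B rose by 4.02 ± 0.20 (limma adjusted p = 0.00398, 0.00022 and 7.05e-07).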

How the data were processed

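Gene counts of the 9 depletion libraries are used as the authors deposited them, not normalized. For the 6 overexpression libraries the labels say FPKM, yet every deposited column is in CPM of fragments (FPM), with one fixed step per library. Division by that step returned whole fragments in 100% of values (tolerance 0.001). The planned log2-scale test assumed FPKM and was kept. The submitters' processing notes list STAR 2.7.3a, Trim Galore 0.6.4, Subread 1.6.3 with featureCounts, limma 3.50.3 and hg38. For what each served, and for annotation, strandedness and shared reads, the answer was not given in the sources used here.

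Counts were tested with edgeR 4.0.16 (quasi-likelihood, TMM, filterByExpr) over all 9 depletion libraries, and FPM with limma 3.58.1 on log2(FPM + 1) for genes averaging 1 FPM or more, in R 4.3.3, both tested on simulated data, with Benjamini-Hochberg adjustment over all genes and a threshold of 0.05. Fold changes on log2(FPM + 1) understate low genes. CPM are counts over the library total that remains after the low-count filter, scaled by TMM, and FPM are over the plain total. Alternatives were DESeq2 1.42.0, limma-voom, other scalings, filters and pseudocounts, halved counts, a replicate block and leaving out libraries; leaving out 2 libraries together and TMM scaling of FPM were added after the data were seen. Of counts between 10 and 50, 62.9 to 68% were even, which halved counts address. The study gives 4 comparisons. The members and gene lists were chosen with earlier results of these data known. Named genes were the 9 members, KIF20A, their paralogs, the PPAR receptors and their partners, the pathway genes past the threshold or with the 2 smallest unadjusted p in each list, and the 12 genes with the highest or lowest profile correlation; ACAD9, FGF21, CYP4A11 and the genes of chromosome 9 fall outside this rule and were chosen after their values were seen. Gene coordinates and merged exon lengths came from GENCODE 29 on GRCh38, to which 96.3% and 97.3% of identifiers matched, and promoters from RefSeq. Floors of 3 counts cover counting error only. The smallest p of an exact permutation test of 3 against 3 is 0.10, so no single-gene permutation test was used.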

Additional observations from a re-analysis of the deposited data

How the results depend on the processing

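Counts of called genes moved as follows. In SG1 against CTRL, where edgeR called 0, DESeq2 called 3, the data without a low-count filter 91, and the data without CTRL replicate 3 and SG3 replicate 1 called 765. In SG3 against CTRL, where edgeR called 0, these gave 4, 8 and 0. In SG1 against SG3, where edgeR called 0, they gave 5, 77 and 1528. The 765 and 1528 calls cannot be told apart from the split along the first principal component, which then has SG1 alone on one side. Leaving out each library in turn gave 0 to 1 calls in SG1 against CTRL (1 without SG1 replicate 2) and 0 to 5 in SG1 against SG3 (5 without SG3 replicate 1). In the depletion comparisons the replicate numbers did not pair the samples: same-numbered deviations correlated at -0.123 to 0.182 and differently numbered ones at -0.159 to 0.182. In the overexpression comparison the same-numbered values, 0.0142 to 0.0577, all lay above the differently numbered ones, -0.0497 to 0.0093. Whether the numbers pair those libraries weakly was not tested. With the replicate block edgeR called 0 genes in each depletion comparison, and in the overexpression comparison PLIN2 passed at -0.60, as it did with edgeR on recovered fragments and without EV replicate 3.

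Several small log2 fold changes changed sign. In SG1 against CTRL, ACADVL (0.05) ran from -0.193 without CTRL replicate 3 to 0.245 when libraries were left out, with -0.185 without both libraries that stand apart. HADHA (-0.000577) ran from -0.0665 to 0.0544, with 0.0151 from the 6 libraries alone, 0.000462 with the replicate block and 0.00251 without both that stand apart. In SG3 against CTRL, HADHA (-0.05) ran from -0.0995 to 0.0251, with 0.0119 without both. In SG1 against SG3, leaving out libraries gave -0.0360 to 0.237 for PDK4, -0.958 to 0.149 for ANGPTL4, -0.157 to 0.342 for CREB3L3, -0.0326 to 0.173 for CPT2 and -0.0104 to 0.103 for HADHA, with 0.149 for ANGPTL4 and -0.00939 for HADHA without both that stand apart. In the libraries labelled KIF20A_OE against EV, CPT1A became -0.313 with TMM scaling and -0.332 with edgeR on recovered fragments, and ran from -0.113 to 0.246 when libraries were left out. HADHA became -0.355 and -0.362, and ran from -0.0512 to 0.0692. The causes were not tested. No other value of the 9 genes changed sign under an alternative that was run. CREB3L3 rests on 6 counts in CTRL, which limits its fold change more than that of any other of the 9 genes.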

Other observations

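Genes that set the supply of malonyl-CoA, the inhibitor of CPT1A, gave no call in the depletion groups with all libraries in the fit. Over 9 such genes the median log2 fold change was 0.02 in SG1 and -0.01 in SG3 against CTRL. Without CTRL replicate 3 and SG3 replicate 1, which stand apart, PRKAA1 passed as higher in SG1 than in CTRL, at 0.41 ± 0.09 (edgeR adjusted p = 0.0417), and PRKAA1 and PRKAA2 as higher in SG1 than in SG3, at 0.42 and 0.49 (edgeR adjusted p = 0.0246 and 0.0442). Over 5 ketone body genes the medians were -0.19 in SG1 and -0.000843 in SG3. In the libraries labelled KIF20A_OE 4 of 8 tested genes rose and 2 fell against EV, near the 46.2% and 23.4% of all genes, and after TMM scaling 3 rose and 3 fell, against 33.7% and 33%. ACACB, the acetyl-CoA carboxylase at the mitochondrial surface, rose by 1.18 ± 0.17 to 30.9, 28.0 and 29.8 FPM in the libraries labelled KIF20A_OE, against 11.5, 11.2 and 15.1 FPM in EV libraries (limma adjusted p = 0.000305). PRKAA1, a catalytic subunit of AMP-activated kinase, fell by 1.04 ± 0.11 to 89.5, 75.1 and 80.4 FPM, against 167, 169 and 170 FPM in EV libraries (limma adjusted p = 6.46e-05). Of 5 tested ketone body genes, BDH1 fell by 3.57 on the log2 scale, to 0.125, 8.43 and 0.0535 FPM in the libraries labelled KIF20A_OE, against 22.8, 37.1 and 19.5 FPM in EV libraries, so that one library stood apart. ACAT1 rose by 1.05.

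The control libraries of both datasets, which carry the same line and genotype labels, held unlike levels of ANGPTL4: 1.04, 1.42 and 1.15 CPM in CTRL libraries and 254, 110 and 80.4 FPM in EV libraries. PDK4 was at 1.10, 3.12 and 2.56 CPM in CTRL libraries and 25.4, 11.4 and 13.7 FPM in EV libraries, whereas CPT1A was at 56.9, 66.6 and 39.3 CPM and 93.8, 68.5 and 56.6 FPM. The tables were scaled separately and one lacks mitochondrially encoded genes, so no test was made between them.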
